A study of Mus musculus with 6 samples.

Results

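Formative and primed pluripotency describe the states through which embryonic stem cells pass after they leave the naive state and before they commit to a germ layer. The 9 genes described here are Otx2, Fgf5, Pou3f1, Zic2, Zic5, Foxd3, Sox3, Sox11 and Grhl2, which were chosen by name as genes associated with those states. They are 9 of the 21978 entries of the count table, and all 9 passed the filter on low counts. Fgf5 encodes a secreted growth factor, and the other members encode transcription factors.

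The 6 libraries of mouse embryonic stem cells fell into 3 groups of 2. E518K cells (clones 8 and 15, genotype label DGCR8 E518K/E518K) were transfected with a Sleeping Beauty vector for Flag-tagged DGCR8 carrying the E518K substitution. KO cells (libraries 1 and 3, genotype label DGCR8 -/-) were not transfected. The wt cells (clones 12 and 16, genotype label DGCR8 wt/wt) were transfected with the same kind of vector for the wild-type protein. Every culture received 300 ng/mL doxycycline for 48 h. All were feeder-free, on gelatin, with LIF plus the GSK3 inhibitor CHIR99021 and the MEK inhibitor PD0325901, a mixture known as 2i that holds cells in the naive state. DGCR8 binds RNA and works with the nuclease Drosha in the nuclear complex that cuts miRNA precursors out of their primary transcripts. The series title names E518K as a Wilms tumour mutation, so the comparisons ask how far the genes differ without DGCR8 and with the substituted protein. Both KO titles carry clone number 261, so their spread may be technical, while the other groups hold 2 clones each. KO cells differ from both other groups in transfection as well as in DGCR8, and these cannot be told apart. The labels give the transfected clones a DGCR8 genotype as well as a vector, and do not say whether they were made from the KO line, so what remains of their own Dgcr8 gene is unknown here.

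When naive cells are released from 2i, FGF signalling through ERK helps to switch on Otx2, Pou3f1 and Fgf5, and OTX2 with other factors moves OCT4 to a new set of enhancers. Foxd3, Zic2 and Grhl2 are known for work at enhancers during that passage, and Sox3 and Sox11 lead on to the neural lineage. The miRNAs of the miR-290 and miR-302 clusters, which depend on DGCR8, are among the most abundant miRNAs of mouse embryonic stem cells and their early descendants.

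Levels are given as CPM, the count scaled to library size with TMM factors. Differences are log2 fold changes ± standard error (SE) from edgeR's quasi-likelihood test over 16498 genes with Benjamini-Hochberg adjustment, and a gene is called at an adjusted p under 0.05. Library totals ran from 73642784 to 75121971 counts. The groups differed in spread, with a biological coefficient of variation of 9.19% in E518K, 2.60% in KO and 20.6% in wt. Dgcr8 itself was at 821 and 420 CPM in E518K clones 8 and 15, at 40.0 and 37.1 CPM in KO libraries 1 and 3, and at 196 and 992 CPM in wt clones 12 and 16. The KO libraries were thus the lowest, and the 2 wt clones lay far apart. Reads appear to have been counted over the whole span of a gene. Reads of a transgene and of any remaining part of the locus are not separated in this value. In these bulk samples, fewer cells that express a gene and less RNA per cell cannot be told apart.

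The members did not move as 1 group in any comparison. In E518K against wt, 3 of 9 rose (Zic2, Foxd3 and Grhl2) and 2 fell (Otx2 and Pou3f1), where 11.3% of all tested genes were called higher and 12.5% lower. In KO against wt, 3 rose (Zic5, Sox11 and Grhl2) and 3 fell (Otx2, Pou3f1 and Sox3), beside 27.4% higher and 29.7% lower over all tested genes. In E518K against KO, 3 were higher (Pou3f1, Foxd3 and Sox3) and 1 was lower (Sox11), beside 22.0% and 19.8%. Counted in either direction, 23.7%, 57.2% and 41.8% of tested genes were called in these comparisons. The median log2 fold change of the 9 was 0.34 in E518K against wt, -0.13 in KO against wt and 0.47 in E518K against KO, while that of all tested genes was -0.02 in each. The comparisons with wt share the same wt libraries, so they are not independent of each other.

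**Figure D1:**
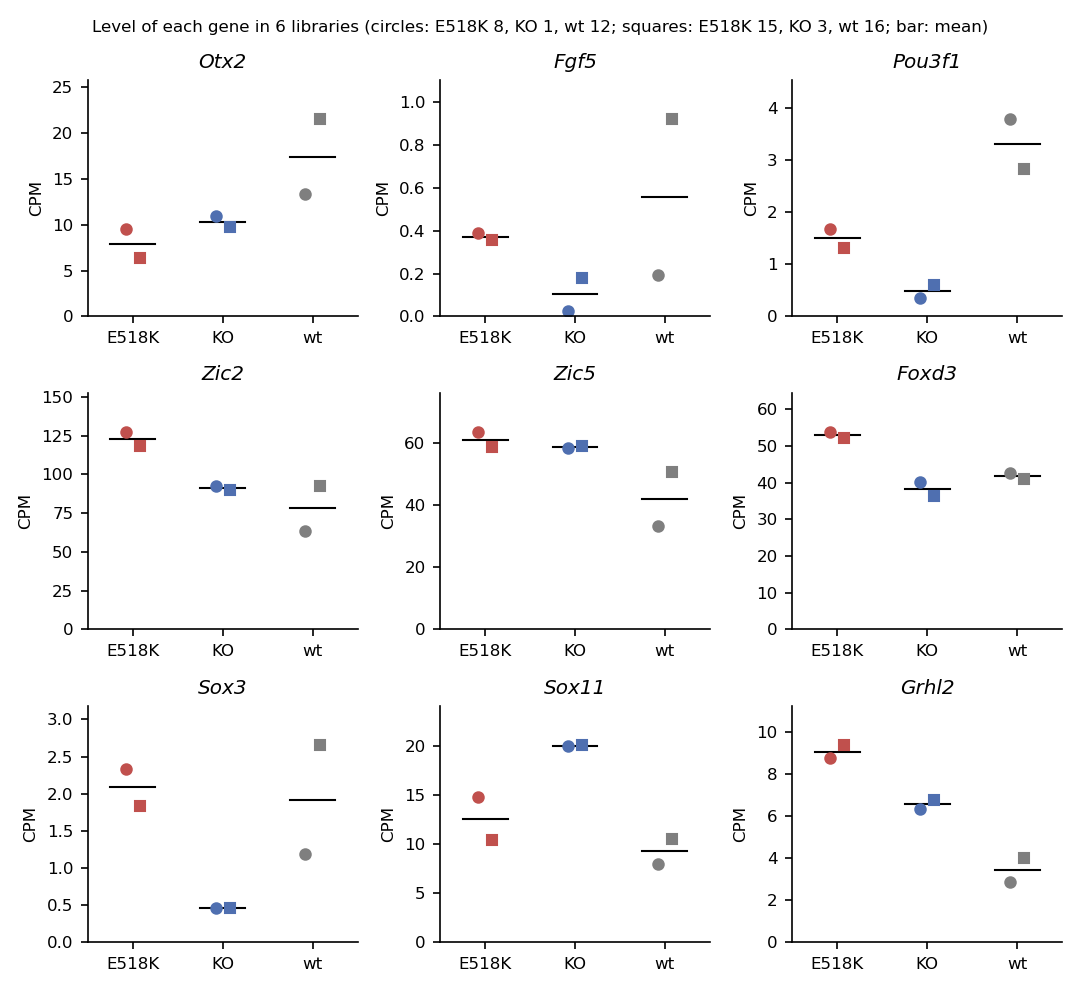
Level of each of the 9 genes in CPM (vertical axes start at 0) in the 6 libraries, by group; circles and squares mark the 2 libraries of a group and bars their mean. Pou3f1 and Sox3 were lowest in KO, Sox11 was highest in KO, and Grhl2 was highest in E518K and lowest in wt.

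Per kilobase of exon, 3 members stood above the other 6. In E518K, Zic2 stood at 42.5 CPM per exonic kilobase, Foxd3 at 22.8 and Zic5 at 12.5, while the other 6 lay between 0.149 (Fgf5) and 1.88 (Otx2). In KO, the same 3 genes stood at 31.6, 16.4 and 12.0, and the others between 0.0414 (Fgf5) and 2.45 (Otx2). In wt, they stood at 27.1, 18 and 8.56, and the others between 0.223 (Fgf5) and 4.13 (Otx2). Zic2, Foxd3 and Zic5 kept this order in every group with no overlap between neighbours on this scale. The order rests on exonic length: in the deposited TPM, which is per genomic span, Foxd3 averaged 119 and Zic2 118 in wt. Further down, the ranges of neighbours overlapped for Otx2 with Sox11 and Grhl2 with Sox3 in E518K, for Otx2 with Sox11 in KO, and for Sox11 with Sox3, Sox3 with Pou3f1 and Grhl2 with Fgf5 in wt. Grhl2 ranked 6 in E518K and KO and 8 in wt, and only 6.6% of its counted span is exon, so its rank rests on the assumption that its reads are mostly exonic. The ranks of Fgf5 (10.9% exon) and Otx2 (26.1% exon) rest on it too. Fgf5 was also the lowest in mean deposited TPM. Otx2 was below Sox11 on that scale in E518K (3.10 against 9.59), KO (4.39 against 16.5) and wt (7.25 against 7.46).

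Fgf5 (chr5:98254184-98277030, plus strand, GRCm38) encodes the FGF ligand used as a marker of the epiblast after implantation, and it was the scarcest member in every group. It had 28 and 26 counts in E518K clones 8 and 15, 2 and 14 counts in KO libraries 1 and 3, and 14 and 68 counts in wt clones 12 and 16. The exact 95% Poisson intervals, which cover counting error only, were 0.242 to 7.22 for KO library 1 and 52.8 to 86.2 for wt clone 16. Both E518K clones lay between the wt clones and the KO libraries at or below the lower wt clone, and the KO libraries, which share a clone number, differed by 7.02 times. Fgf5 was not called by edgeR in the fit of all libraries. Its log2 fold change was -0.58 ± 0.83 in E518K against wt (adjusted p = 0.643, 95% interval -2.53 to 1.37), -2.41 ± 0.94 in KO against wt (adjusted p = 0.0617, -4.62 to -0.20) and 1.83 ± 0.96 in E518K against KO (adjusted p = 0.165, -0.42 to 4.08). KO against wt was called by DESeq2 (-2.41, adjusted p = 0.0396) and by edgeR when KO library 3 (-4.34, adjusted p = 0.0407) or wt clone 12 (-3.13, adjusted p = 0.0046) was left out. E518K against KO was called from those 4 libraries alone (1.83, adjusted p = 0.0444) and when wt clone 12 was left out (1.83, adjusted p = 0.0423). Without wt clone 16 the E518K difference turned to 0.94.

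Otx2 (chr14:48657677-48673819, minus strand) encodes the homeodomain factor that drives cells out of the naive state, and it was below wt in both other groups. It stood at 9.49 and 6.35 CPM in E518K clones 8 and 15, at 11 and 9.71 CPM in KO libraries 1 and 3, and at 13.4 and 21.5 CPM in wt clones 12 and 16. Both wt clones were above all 4 other libraries, whereas E518K clone 8 came close to KO library 3. Otx2 fell in E518K (log2 fold change -1.14 ± 0.26, adjusted p = 0.0227) and in KO (-0.76 ± 0.26, adjusted p = 0.0409). E518K and KO were not separated (-0.39 ± 0.26, adjusted p = 0.275, 95% interval -1.01 to 0.23). The KO call was lost under 7 of 15 alternatives, among them without KO library 1 (-0.85, adjusted p = 0.0963), KO library 3 (-0.67, adjusted p = 0.169) or wt clone 16 (-0.38, adjusted p = 0.182). The E518K call was lost under 4, among them without E518K clone 8 (-1.46, adjusted p = 0.0518) or 15 (-0.87, adjusted p = 0.162). The noncoding gene Otx2os1 lies on the opposite strand over 31.7% of the Otx2 span and has no row of its own. If strand was not used in counting, its reads cannot be told apart from those of Otx2. The model Gm49154 overlaps 10.7% of the Otx2 span on the same strand and has no row either. Reads of Gm49154 in that stretch cannot be told apart from those of Otx2 whether or not strand was used.

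Pou3f1 (chr4:124656807-124660655, plus strand) encodes the POU factor also known as OCT6, which is switched on in epiblast-like cells and neural progenitors, and it showed a graded order of the 3 groups. It stood at 1.67 and 1.32 CPM in E518K clones 8 and 15, at 0.362 and 0.609 CPM in KO libraries 1 and 3, and at 3.78 and 2.83 CPM in wt clones 12 and 16. No 2 groups overlapped. Pou3f1 fell in KO by 2.76 on the log2 scale (SE 0.34, adjusted p = 5.36e-04) and in E518K by 1.15 (SE 0.31, adjusted p = 0.0358), and it was higher in E518K than in KO (1.62 ± 0.33, adjusted p = 0.00782). The KO call held under all 15 alternatives, with values from -3.18 to -1.84. The E518K call against wt was lost under 6, among them without E518K clone 8 (-1.32, adjusted p = 0.115) or 15 (-0.98, adjusted p = 0.223) and without KO library 1 or 3 (-1.14, adjusted p = 0.0558 and 0.0563). The call against KO was lost without KO library 1 (1.29, adjusted p = 0.067) and without E518K clone 8 (1.44, adjusted p = 0.0624). The antisense model Gm2164 overlaps 9.43% of the Pou3f1 span.

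Zic2 (chr14:122475435-122479852, plus strand) encodes a zinc-finger factor found at enhancers in embryonic stem cells, and it was the highest member per exonic kilobase. It stood at 127 and 118 CPM in E518K clones 8 and 15, at 92.2 and 90.1 CPM in KO libraries 1 and 3, and at 63.6 and 92.5 CPM in wt clones 12 and 16. Both E518K clones lay above all other libraries, and the KO libraries lay inside the range of wt. Zic2 rose in E518K against wt (0.65 ± 0.16, adjusted p = 0.0258). It was not called in KO against wt (0.22 ± 0.16, adjusted p = 0.252, 95% interval -0.14 to 0.59) or in E518K against KO (0.42 ± 0.16, adjusted p = 0.0636, 0.06 to 0.79). The E518K call against wt was lost under 7 of 15 alternatives, among them without E518K clone 8 (0.60, adjusted p = 0.136) or 15 (0.71, adjusted p = 0.124) and without KO library 1 or 3 (0.65, adjusted p = 0.0507 and 0.0505). E518K against KO was called under 4 alternatives, namely DESeq2 (adjusted p = 0.0201), the 4 libraries alone (adjusted p = 1.58e-04) and the fits that left out wt clone 12 or 16 (adjusted p = 1.14e-04 and 1.07e-04). In KO against wt the value was 0.51 (adjusted p = 1.17e-04) without wt clone 16 and -0.02 without wt clone 12.

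Zic5 (chr14:122456795-122465677, minus strand) encodes a related zinc-finger factor and lies 9757 bases from Zic2, in the opposite orientation. It stood at 63.4 and 58.7 CPM in E518K clones 8 and 15, at 58.5 and 59.1 CPM in KO libraries 1 and 3, and at 33.2 and 50.5 CPM in wt clones 12 and 16. The wt clones were the 2 lowest libraries, and the ranges of E518K and KO overlapped. Zic5 rose in KO (0.49 ± 0.17, adjusted p = 0.0451), a call that 10 of 15 alternatives lost with adjusted p values of 0.0661 to 0.133, among them without either KO library or either E518K clone. The value in E518K against wt was similar but not called (0.55 ± 0.17, adjusted p = 0.0609, 95% interval 0.14 to 0.96), and that in E518K against KO was 0.06 ± 0.17 (adjusted p = 0.82, -0.35 to 0.46). DESeq2 called E518K against wt (0.56, adjusted p = 0.00802), and edgeR did so when wt clone 12 (0.28, adjusted p = 0.0173) or wt clone 16 was left out (0.88, adjusted p = 5.23e-05).

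The 2 neighbours moved together between the wt clones, where Zic2 was 1.46 times and Zic5 1.52 times as high in clone 16 as in clone 12. The ratio of Zic2 to Zic5 counts was 2.00 and 2.01 in E518K clones 8 and 15, 1.58 and 1.53 in KO libraries 1 and 3, and 1.92 and 1.83 in wt clones 12 and 16. The ratio was therefore lowest in KO, where Zic5 was near its E518K level and Zic2 was not.

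**Figure D2:**
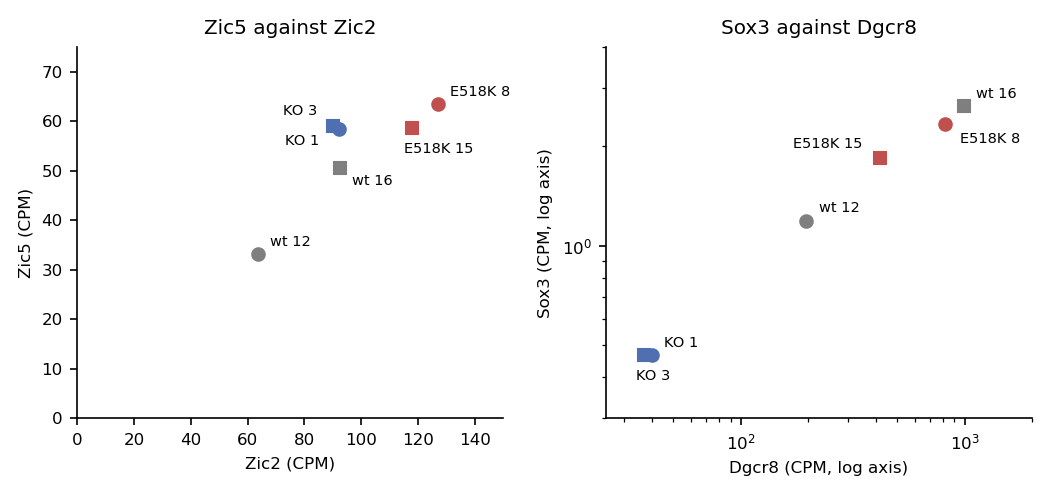
Left, Zic5 against Zic2 (CPM, linear axes from 0); right, Sox3 against Dgcr8 (CPM, log axes); each point is 1 library, coloured by group. The KO libraries averaged 58.8 CPM of Zic5 at 91.2 CPM of Zic2, and 0.466 CPM of Sox3 in the low corner of the right panel.

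Foxd3 (chr4:99656299-99658622, plus strand) encodes a forkhead factor required to maintain the epiblast, and it was higher in E518K than in both other groups. It stood at 53.7 and 52.2 CPM in E518K clones 8 and 15, at 40.1 and 36.3 CPM in KO libraries 1 and 3, and at 42.7 and 40.9 CPM in wt clones 12 and 16. The 2 libraries of each group lay close together, and the KO range lay just under the wt range. Foxd3 rose in E518K against wt (0.34 ± 0.08, adjusted p = 0.0229) and was higher in E518K than in KO (0.47 ± 0.08, adjusted p = 0.00331). KO against wt was not called (-0.13 ± 0.08, adjusted p = 0.198, 95% interval -0.32 to 0.06). The call against wt was lost under 6 of 15 alternatives, with adjusted p values of 0.0545 to 0.105 and a log2 fold change between 0.32 and 0.37, among them without any 1 of the KO and E518K libraries. The call against KO was lost without KO library 3 (0.40, adjusted p = 0.0541).

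Sox3 (chrX:60891366-60893430, minus strand) encodes the SoxB1 factor closest to SOX2 and SOX1, and it was low in KO, with overlapping levels in the other groups. It stood at 2.33 and 1.84 CPM in E518K clones 8 and 15, at 0.466 and 0.467 CPM in KO libraries 1 and 3, and at 1.19 and 2.65 CPM in wt clones 12 and 16. Both KO libraries, with 36 counts each, were below all 4 others, and the E518K clones lay between the wt clones. Sox3 fell in KO by 2.04 (SE 0.42, adjusted p = 0.0051) and was higher in E518K than in KO by 2.16 (SE 0.42, adjusted p = 0.00596). E518K against wt gave 0.12 ± 0.38 (adjusted p = 0.842, 95% interval -0.78 to 1.02). The KO call held under all 15 alternatives, and its log2 fold change was -1.35 without wt clone 16. The E518K value ran from -0.34 without wt clone 12 to 0.81 without wt clone 16, where it was called (adjusted p = 0.0415). The call of E518K against KO was lost without E518K clone 8 (1.98, adjusted p = 0.0511).

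Dgcr8 was the gene whose pattern was most like that of Sox3 over the 6 libraries, with a Pearson r of log2 CPM of 0.9983 among 3347 genes. In both, wt clone 16 was highest, E518K clone 8 next, then E518K clone 15, then wt clone 12, with KO at the bottom. The points share their libraries and groups, 29 genes in all passed 0.95, and the part of the Dgcr8 level in the spread of Sox3 was not tested.

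Sox11 (chr12:27334264-27342574, minus strand) encodes a SoxC factor of neural progenitors, and it was the member highest in KO. It stood at 14.8 and 10.4 CPM in E518K clones 8 and 15, at 20 and 20.1 CPM in KO libraries 1 and 3, and at 7.96 and 10.6 CPM in wt clones 12 and 16. Both KO libraries were above all others, and the lower E518K clone overlapped the higher wt clone. Sox11 rose in KO against wt (1.11 ± 0.20, adjusted p = 0.00285), under all 15 alternatives too, and was lower in E518K than in KO (-0.67 ± 0.20, adjusted p = 0.0302). E518K against wt was not called (0.44 ± 0.20, adjusted p = 0.152, 95% interval -0.03 to 0.91). The call of E518K against KO was lost under 6 alternatives, among them without E518K clone 15 (-0.42, adjusted p = 0.171) and without KO library 1 or 3 (-0.67, adjusted p = 0.121 and 0.122). Without wt clone 16, E518K against wt was called (0.66, adjusted p = 0.0409). Sox4 and Sox12, the other SoxC genes, did not share this pattern in KO against wt. Sox12 fell (-0.39 ± 0.09, adjusted p = 0.00722), and Sox4 was not called (-1.12 ± 0.85, adjusted p = 0.287).

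Grhl2 (chr15:37233036-37363569, plus strand) encodes a grainyhead factor that opens epithelial enhancers in formative cells, and it was above wt in both other groups. It stood at 8.77 and 9.38 CPM in E518K clones 8 and 15, at 6.36 and 6.78 CPM in KO libraries 1 and 3, and at 2.87 and 4.0 CPM in wt clones 12 and 16. No 2 groups overlapped, with E518K highest and wt lowest. Grhl2 rose in E518K (1.40 ± 0.19, adjusted p = 0.00406) and in KO (0.93 ± 0.19, adjusted p = 0.00456). E518K against KO was not called (0.47 ± 0.18, adjusted p = 0.078, 95% interval 0.04 to 0.90), although a fit of only those 4 libraries called it (adjusted p = 0.00544). The KO call held under all 15 alternatives, and the E518K call was lost only without E518K clone 15 (1.36, adjusted p = 0.0521). Its paralog Grhl3 went the other way, falling in E518K (-0.95 ± 0.18, adjusted p = 0.0122) and in KO (-1.05 ± 0.18, adjusted p = 0.0024).

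**Figure D3:**
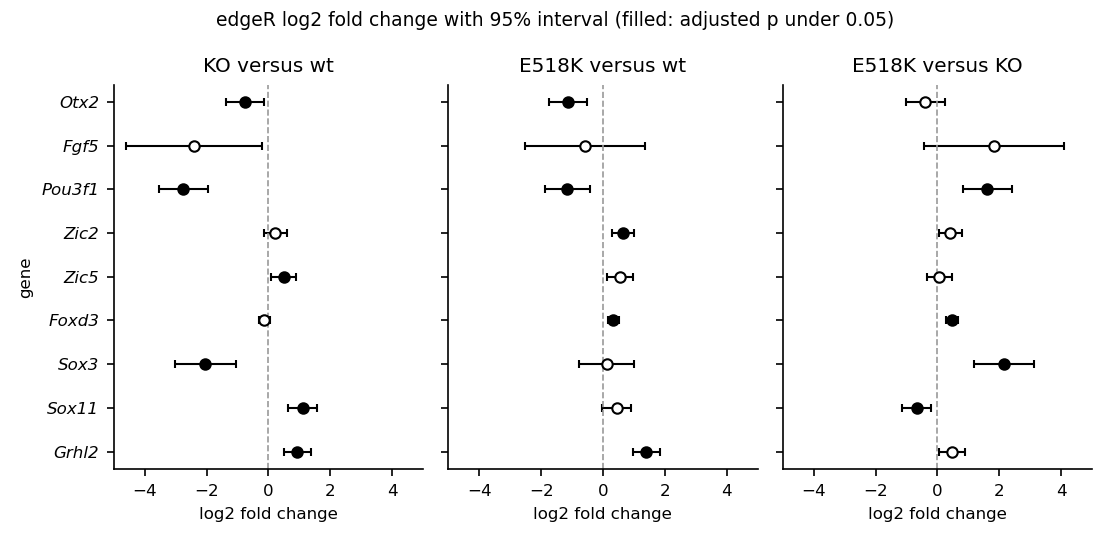
EdgeR log2 fold change with its 95% interval (horizontal axis) of each gene (vertical axis) in the 3 comparisons; filled points have an adjusted p under 0.05. Pou3f1 in KO against wt (-2.76) and Sox3 in E518K against KO (2.16) lie far from 0, and the interval of Fgf5 is wide in each comparison.

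Zic5 and Grhl2 were also the 2 members whose 3′ UTR held a match to the seed of the miR-290 and miR-302 families. The mature sequences of a member of each cluster, taken from RefSeq on GRCm38.p6, are shown because they share that seed (bases 2 to 8, in capitals). The first lies at chr7:3220691-3220712 and the second at chr3:127545275-127545297, both on the plus strand.
mmu-miR-294-3p: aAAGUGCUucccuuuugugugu
mmu-miR-302b-3p: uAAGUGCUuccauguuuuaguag

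The matching letters, AGCACTT, were searched on the sense strand of the longest annotated 3′ UTR of each gene. Zic5 holds 1 match, at positions 307 to 313 of 2538 bases, and Grhl2 holds 2, at 1480 to 1486 and 1871 to 1877 of 2718 bases. The matches are shown with their neighbouring bases, the site in capitals.
Zic5, position 307: ctcagtggtagAGCACTTgcctagcatgc
Grhl2, position 1480: tttgtctgcgaAGCACTTtgatgttttac
Grhl2, position 1871: ccctgtgctatAGCACTTggggctagctg

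Among 14780 tested genes with a 3′ UTR, 16.7% held the letters AGCACTT, so 2 of 9 members is near the share of all genes. Both genes were called higher in KO against wt, as 27.4% of all tested genes were. The seed match of miR-17 and miR-20, GCACTTT, overlaps the first Grhl2 match by 6 letters and was found in no other member, beside 13.8% of genes. That of let-7, CTACCTC, was found in 0 of 9 members, beside 10.2% of genes. Sox11, the member with the largest increase in KO, has a 3′ UTR of 6957 bases without any of the 3. Whether miRNAs play a part in that increase was not tested. A match is a description of these letters and not a site shown to be bound.

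The libraries of a group did not spread alike. Between wt clones, the level in clone 16 over that in clone 12 was 4.76 for Fgf5, 2.23 for Sox3 and 1.60 for Otx2, and it was 0.748 for Pou3f1. Between E518K clones, clone 15 over clone 8 ran from 0.669 (Otx2) to 1.07. Between KO libraries, library 3 over library 1 was 7.02 for Fgf5 and 1.68 for Pou3f1, and lay between 0.882 and 1.07 for the other 7. The groups did not overlap for 6 of 9 members in E518K against wt (62.0% of tested genes), for 8 in KO against wt (81.7%) and for 8 in E518K against KO (80.5%).

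**Figure D4:**
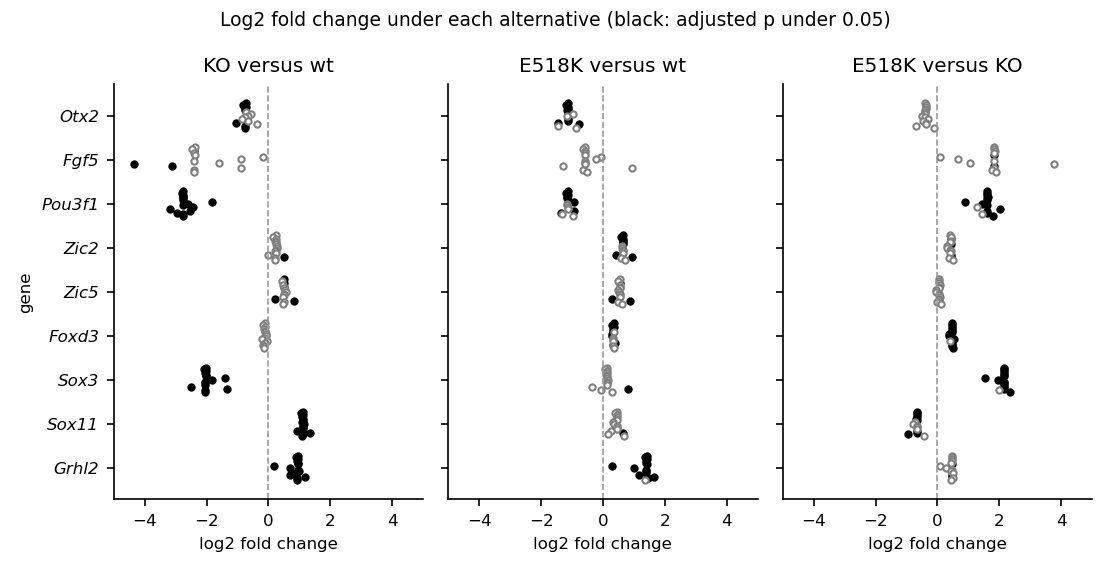
Log2 fold change (horizontal axis) of each gene (vertical axis) under 15 other ways of processing, in the 3 comparisons; black points have an adjusted p under 0.05. The points of Pou3f1, Sox3, Sox11 and Grhl2 in KO against wt are all black, whereas those of Fgf5 and Sox3 in E518K against wt lie on both sides of 0.

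The nearest patterns of the other members were found among the same genes of changing level. By Pearson r over 6 libraries, Pou3f1 was most like Dbn1 (0.9989), Zic5 most like Wdr64 (0.9952), Sox11 most like Lcp1 (0.9919) and Grhl2 most like Upk1a (0.9911). Otx2 was most like Il23a (0.9886), Zic2 most like Mest (0.9885), Foxd3 most like Actn3 (0.9676) and Fgf5 most like Pde5a (0.9335). The number of genes above 0.95 ran from 0 for Fgf5 and 3 for Foxd3 to 100 for Sox11 and 444 for Pou3f1, and it was 29 for Grhl2. No member was among the 3 nearest genes of another.

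Other genes of the formative and primed states also moved in both directions. Of 20 such genes, 7 rose and 5 fell in E518K against wt (median log2 fold change 0.20). In KO against wt, 6 rose and 7 fell (-0.23). In E518K against KO, 11 were higher and 5 lower (0.64). In that order, 60.0%, 65.0% and 80.0% of them were called, beside 23.7%, 57.2% and 41.8% of all tested genes. Dnmt3b, a de novo DNA methyltransferase, rose in E518K (1.14 ± 0.13, adjusted p = 0.00247) and in KO (0.50 ± 0.13, adjusted p = 0.0124). Utf1, a chromatin-bound pluripotency factor, rose in E518K (0.55 ± 0.10, adjusted p = 0.00918) and fell in KO (-0.50 ± 0.10, adjusted p = 0.00379). The growth regulator Myc did the same, with 0.72 ± 0.13 in E518K (adjusted p = 0.0101) and -1.76 ± 0.14 in KO (adjusted p = 9.63e-05). Fst, which binds activin, rose in E518K (0.63 ± 0.11, adjusted p = 0.00975). N-cadherin, Cdh2, rose in E518K (0.67 ± 0.13, adjusted p = 0.0148) and in KO (2.05 ± 0.14, adjusted p = 5.95e-05). The Nodal inhibitor Lefty1 also rose in E518K (0.59 ± 0.17, adjusted p = 0.0439) and in KO (1.24 ± 0.17, adjusted p = 8.94e-04). Lefty2, of the same list, fell in KO (-0.93 ± 0.15, adjusted p = 0.00199) and was not called in E518K (0.01 ± 0.15, adjusted p = 0.971). The ephrin receptor Epha4 rose in KO (0.95 ± 0.17, adjusted p = 0.00245), with -0.53 ± 0.17 in E518K (adjusted p = 0.0591). The tight-junction gene Cldn6 fell in KO (-4.68 ± 0.31, adjusted p = 5.56e-05) and in E518K (-1.03 ± 0.25, adjusted p = 0.0258). Tead2 fell in KO (-1.50 ± 0.14, adjusted p = 1.97e-04) and in E518K (-0.74 ± 0.14, adjusted p = 0.0119). Sall2 fell in E518K (-1.09 ± 0.15, adjusted p = 0.00387) and in KO (-0.83 ± 0.14, adjusted p = 0.00245).

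Genes of the naive state were expressed in every group, with a summed level of 4600 and 4760 CPM in E518K clones 8 and 15, 4450 and 4460 CPM in KO libraries 1 and 3, and 5150 and 4640 CPM in wt clones 12 and 16. Of 18 such genes, 4 rose and 4 fell in E518K against wt (median -0.03). In KO against wt, 4 rose and 11 fell (-0.39). In E518K against KO, 8 were higher and 3 lower (0.42). In that order, 44.4%, 83.3% and 61.1% of them were called, beside 23.7%, 57.2% and 41.8% of all tested genes. Esrrb stood at 760 and 778 CPM in E518K clones 8 and 15, at 595 and 593 CPM in KO libraries 1 and 3, and at 816 and 784 CPM in wt clones 12 and 16. Tcl1 (-2.0 ± 0.17, adjusted p = 1.21e-04), Tbx3 (-1.35 ± 0.12, adjusted p = 1.67e-04) and Klf4 (-1.07 ± 0.16, adjusted p = 0.00142) fell in KO, whereas Prdm14 rose (0.54 ± 0.07, adjusted p = 5.80e-04). Tbx3 (-0.53 ± 0.12, adjusted p = 0.0216) and Klf4 (-0.61 ± 0.16, adjusted p = 0.0357) fell in E518K too, and Tcl1 gave -0.48 ± 0.16 there (adjusted p = 0.0657). In E518K, Nr0b1 rose (0.38 ± 0.07, adjusted p = 0.0138) and Tfcp2l1 fell (-0.35 ± 0.06, adjusted p = 0.00695). Of 6 core pluripotency genes, 1 rose and 5 were not called in E518K against wt. In KO against wt, 5 fell and 1 was not called. In E518K against KO, 4 were higher and 2 not called. These calls made up 16.7%, 83.3% and 66.7% of the 6. Pou5f1, which encodes OCT4 and defines the labelled cell type, was between 1080 and 1360 CPM in all 6 libraries and fell slightly in KO (-0.22 ± 0.07, adjusted p = 0.0305). Lin28a, whose protein holds back the maturation of let-7, stood at 114 and 90.6 CPM in E518K clones 8 and 15, at 1.19 and 1.22 CPM in KO libraries 1 and 3, and at 82.3 and 117 CPM in wt clones 12 and 16. It fell in KO (-6.37 ± 0.24, adjusted p = 1.10e-05).

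Of 10 genes of FGF and ERK signalling, which include receptor genes, 2 rose (Spry4 and Fgfr2) and 1 fell in E518K against wt. Over all tested genes, 23.7% were called there. In KO against wt, 2 rose and 4 fell, beside 57.2%. In E518K against KO, 6 were higher and 2 lower, beside 41.8%. The feedback inhibitor Spry4 rose in E518K (3.07 ± 0.18, adjusted p = 5.11e-04) and in KO (2.08 ± 0.17, adjusted p = 1.27e-04). The ERK phosphatases Dusp4 (-2.18 ± 0.26, adjusted p = 4.97e-04) and Dusp6 (-1.34 ± 0.15, adjusted p = 3.75e-04) fell in KO. The receptor gene Fgfr2 was the most abundant of them, at 1420 and 1380 CPM in E518K clones 8 and 15, at 1240 and 1250 CPM in KO libraries 1 and 3, and at 1220 and 1220 CPM in wt clones 12 and 16.

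Among 15 tested paralogs of the members, 2 rose and 2 fell in E518K against wt, 1 rose and 6 fell in KO against wt, and 4 were higher and 2 lower in E518K against KO. In that order, 26.7%, 46.7% and 40.0% of them were called, beside 23.7%, 57.2% and 41.8% of all tested genes. The riser in KO was Foxd1 (2.75 ± 0.26, adjusted p = 1.86e-04), a relative of Foxd3. It also rose in E518K (1.24 ± 0.25, adjusted p = 0.0157). Among 14 epithelial genes linked to Grhl2, 3 fell and 11 were not called in E518K against wt, and 3 rose and 5 fell in KO against wt. In E518K against KO 1 was higher and 5 were lower. The calls made up 21.4% of the 14 genes in E518K against wt, 57.1% in KO against wt and 42.9% in E518K against KO. The most abundant of them, E-cadherin (Cdh1), stood at 390 and 357 CPM in E518K clones 8 and 15, at 585 and 576 CPM in KO libraries 1 and 3, and at 397 and 493 CPM in wt clones 12 and 16. Cdh1 was not called in E518K against wt (-0.25 ± 0.10, adjusted p = 0.119) and rose in KO (0.38 ± 0.10, adjusted p = 0.0158).

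Markers of later cell types held absent genes, genes that rose and genes that fell. Of 12 neural progenitor markers, 8 were tested, of which 3 rose and 5 were not called in E518K against wt, 3 rose and 5 were not called in KO against wt, and 1 was higher and 1 lower in E518K against KO. Their summed level was 127 and 116 CPM in E518K, 131 and 136 CPM in KO, and 106 and 86.3 CPM in wt. This sum and Sox11 were both higher in KO than in wt. Between the wt clones, the sum was higher in clone 12 and Sox11 in clone 16. Pax6, a regulator of neural progenitors, rose in E518K (2.29 ± 0.49, adjusted p = 0.0182) and in KO (3.36 ± 0.49, adjusted p = 0.00115) at levels of at most 2.76 CPM. Tubb3 and Ncam1 made up most of that sum, Hes5, Neurog2, Fabp7 and Dcx were at or near 0 throughout, and the part of such cells in the Sox11 result was not tested. Of 9 tested primitive streak and endoderm markers, 1 rose and 8 were not called in E518K against wt, 2 rose and 3 fell in KO against wt, and 2 were higher and 1 lower in E518K against KO. In that order, 11.1%, 55.6% and 33.3% of the tested markers were called, beside 23.7%, 57.2% and 41.8% of all tested genes. The sum of the list ran from 36.6 to 38.3 CPM in E518K, from 28.5 to 30.4 CPM in KO and from 31.4 to 34.6 CPM in wt. Eomes was the most abundant, and it fell in KO (-0.95 ± 0.10, adjusted p = 2.52e-04). The streak gene Evx1 stood at 2.21 and 2.69 CPM in E518K clones 8 and 15, at 8.57 and 9.05 CPM in KO libraries 1 and 3, and at 0.152 and 0.325 CPM in wt clones 12 and 16. It rose in E518K (3.35 ± 0.32, adjusted p = 0.00161) and in KO (5.20 ± 0.33, adjusted p = 4.84e-05). Of 7 tested trophectoderm markers, 1 rose and 5 fell in E518K against wt, 1 rose and 3 fell in KO against wt, and 2 were higher and 2 lower in E518K against KO. In that order, 85.7%, 57.1% and 57.1% of the tested markers were called, beside the same 23.7%, 57.2% and 41.8%. The sum of the list ran from 37.2 to 44.5 CPM in E518K, from 70.4 to 75.7 CPM in KO and from 50.4 to 63.5 CPM in wt. Tfap2c, the most abundant, fell in E518K (-0.74 ± 0.20, adjusted p = 0.0355) and was not called in KO (0.46 ± 0.19, adjusted p = 0.0818). Tfap2c and Krt8 made up most of the trophectoderm sum. Krt8 was the riser in KO (1.72 ± 0.17, adjusted p = 2.47e-04). Ascl2 (-3.21 ± 0.20, adjusted p = 4.95e-05), Gata3 (-2.58 ± 0.35, adjusted p = 8.27e-04) and Krt18 (-1.26 ± 0.23, adjusted p = 0.00291) fell there. Elf5 and Hand1 were at or near 0. The part of such cells in the levels of the 9 genes was not tested.

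**Figure D5:**
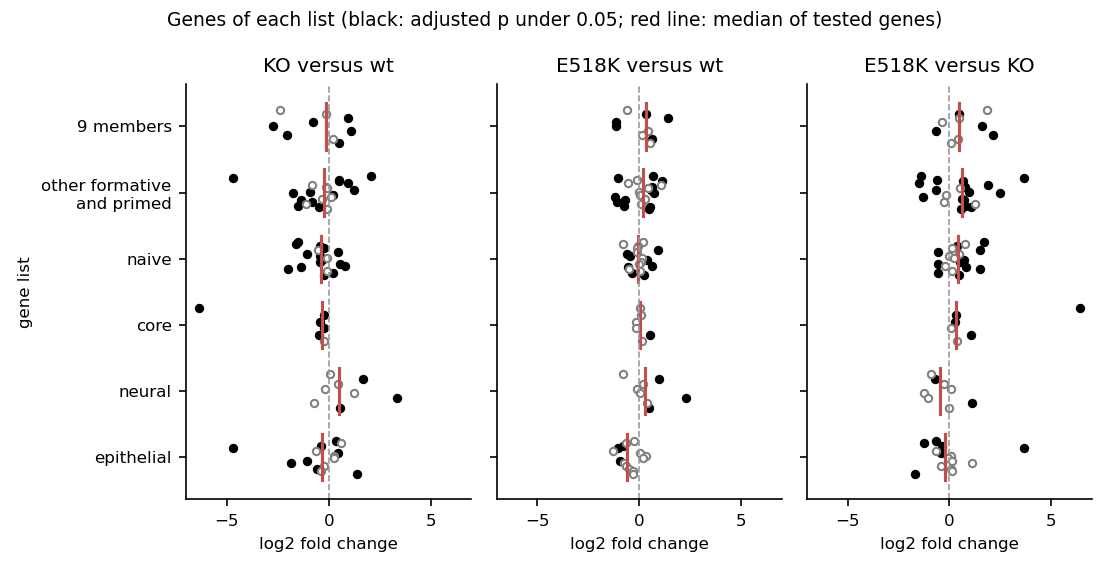
Log2 fold change (horizontal axis) of the tested genes of 6 of the lists (vertical axis) in the 3 comparisons; each point is a gene, black points have an adjusted p under 0.05 and red lines mark the median. Genes of most lists lie on both sides of 0, and the naive genes have a median of -0.39 in KO against wt and -0.03 in E518K against wt.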

How the data were processed

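The deposited count table held whole-number counts per gene for 6 libraries, not normalized by the authors, and the deposited TPM table the same counts per length. Per the submitters' processing notes the tools were STAR and bedtools and the build GRCm38.p6 (tool versions and settings: not given in the sources used here). A length implied by both tables lay within 5% of the genomic span in GENCODE M21 for 98.5% of 13427 genes and of the exonic length for 3.35%. Counts are therefore taken to include introns. Whether strand was used in counting cannot be read from these lengths.

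Counts of all 6 libraries were fitted in edgeR 4.0.16 (R 4.3.3) with group as the only term, TMM factors, the default filter (minimum count 10) and robust quasi-likelihood F tests, with 3 residual degrees of freedom. The step was tested on simulated data. There were 15 alternatives, with DESeq2 1.42.0 and limma 3.58.1 on log2(TPM + 1) or log2(TPM + 0.1) among them. Coordinates are GENCODE M21 on GRCm38, and n is 2 libraries per group. In a check for a library deposited in duplicate, the chi-square divided by its degrees of freedom was 21.6 in E518K, 3.55 in KO and 51.4 in wt, so each library was counted. Every column of sample values was used.

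The members and lists were chosen with earlier results of these data known. Text names all members, the called genes with the smallest p of the other formative, naive and paralog lists whose average log2 CPM was 1 or more (up to 4 per direction and comparison), the most abundant markers, overlapping genes, Dgcr8, and the genes of most similar pattern among those with a log2 range of at least 1. Sox4, Sox12, Lin28a, Spry4, Dusp4, Dusp6, Evx1, Pax6, Hes5, Neurog2, Fabp7, Dcx, Elf5 and Hand1 are named outside that rule, after their values were seen, and some genes that the rule names are not reported here. P values measure the spread between libraries. In the fit of all libraries that spread is pooled over the groups, so KO libraries that share a clone number count beside separate clones.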

Additional observations from a re-analysis of the deposited data

How the results depend on the processing

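No paired analysis was possible because the groups share no replicate number. Of the results and alternatives run, 112, 102 and 113 kept direction and call in KO against wt, E518K against wt and E518K against KO; 17, 24 and 10 lost the call, 4, 5 and 9 gained it, and 1, 3 and 2 changed sign. The sign changes were Zic2 in KO against wt without wt clone 12 (-0.02, and 0.51 without wt clone 16), Fgf5 in E518K against wt without wt clone 16 (0.94, and -1.30 without wt clone 12), Sox3 in E518K against wt without wt clone 12 (-0.34, and 0.81 without wt clone 16) and without E518K clone 8 (-0.06), and Zic5 in E518K against KO under limma with either pseudocount (-0.05). None of these was called in the fit of all libraries. Summing the KO libraries gave 6163 genes called in KO against wt, 1909 in E518K against wt and 3267 in E518K against KO, against 9429, 3917 and 6902 in the fit of all libraries. For E518K against wt, limma called 2291 genes with a pseudocount of 1 and 2275 with 0.1, and a fit of only the 4 libraries called 1999. Leaving out 1 library in turn gave 6084 to 10958 genes in KO against wt, 644 to 6987 in E518K against wt and 3285 to 9482 in E518K against KO. The members called then numbered 4 to 7, 0 to 8 and 2 to 7. In E518K against wt, 3 members were called by limma with a pseudocount of 1, 2 with 0.1 and 2 with KO summed; in E518K against KO, 7 were called from the 4 libraries alone. The cause was not tested. Fgf5 had 2 to 68 counts per library, and its wt clones differed by 4.76 times; a filter of at least 30 reads in 2 libraries removed this gene, which left 14 of 15 alternatives for that gene.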
